A study of Homo sapiens with 8 samples.

Results

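The 10 genes described here encode the apical kinases of the DNA damage checkpoint and the proteins that carry their signal: ATM and ATR, the ATR partner ATRIP, the ATR activator TOPBP1, the mediator CLSPN (claspin), the effector kinases CHEK1 and CHEK2, and the chromatin proteins H2AX, MDC1 and TP53BP1 (53BP1). They were chosen by name. Each was found once among the 61906 genes listed, and all 10 were among the 14478 genes tested, whose mean level over the 8 libraries was 1 TPM or more (TPM is the level of a transcript as a share of its library, corrected for length). The data came from U251, a human glioblastoma cell line labelled as wild type and grown in DMEM with serum. Of the 8 libraries, 4 were made from cultures given the vehicle DMSO for 24 h, and the other 4 from cultures given 100 nM of LLY-283, a small-molecule inhibitor of the arginine methyltransferase PRMT5, for 24 h. The protocols name no irradiation of these cultures, and DNA damage in them was not measured here. All libraries came from 1 cell line and 1 dose and time, and the labels call the replicates biological without saying how the cultures were separated, so the p-values measure the spread between these libraries.

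ATM is recruited to DNA double-strand breaks and phosphorylates H2AX around them, and the phosphorylated form, γH2AX, is bound by MDC1, which in turn brings the ubiquitin ligases that prepare chromatin for 53BP1. ATR is bound to its partner ATRIP, is drawn to single-stranded DNA coated with RPA at stalled replication forks and resected breaks, and is switched on by TOPBP1. Claspin then presents CHEK1 to ATR, while CHEK2 is activated mainly by ATM, and both effector kinases slow the cell cycle, in part through the CDC25 phosphatases. The study followed this response through γH2AX foci in U251 cells, and used RNAseq to look for ways in which LLY-283 may raise radiosensitivity.

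Of the 10 genes, 3 were higher and 1 was lower in LLY-283-treated cells at an adjusted p-value under 0.05 (limma across all genes tested, with Benjamini-Hochberg adjustment). MDC1, ATRIP and TOPBP1 rose by 26.4%, 23.4% and 22.0%, and CHEK2 fell by 19.9%. Among all genes tested, 26.2% passed the same threshold, 8.61% as increases and 17.6% as decreases. This excess of decreases depended on the scaling of the libraries, since 1247 increases and 2541 decreases in TPM as deposited became 1927 and 1866 under median-of-ratios scaling, and 1871 and 1820 under quantile normalization. None of the 10 changed more than 1.5-fold. Of all genes tested, 3.87% did so at an adjusted p-value under 0.05 (0.394% as increases and 3.48% as decreases). The median log2 fold change of the 10 genes was -0.018, against -0.047 for all genes tested. Among the 10 genes, 3 (ATRIP, CHEK2 and CLSPN) had vehicle and LLY-283 values that did not overlap, against 29.2% of all genes tested. These counts describe 10 genes chosen by name, and whether they differ from other genes was not tested.

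**Figure D1:**
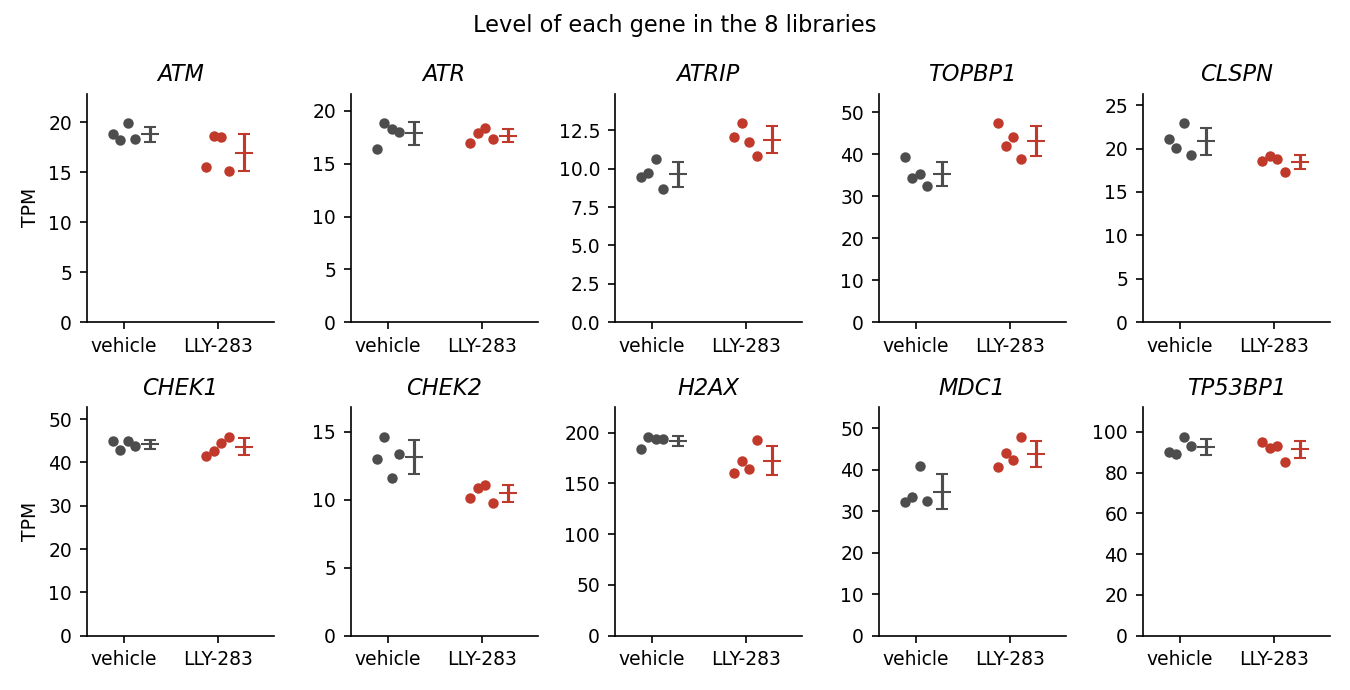
TPM of the 10 genes (vertical axes from 0) in the 4 vehicle libraries (grey) and 4 LLY-283 libraries (red), with points for single libraries in the order of their replicate numbers and bars for the mean ± SD. The groups of ATRIP, CHEK2 and CLSPN do not overlap, and 1 vehicle library of MDC1 (40.84 TPM) lies among the LLY-283 values.

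The promoters of the 4 genes that passed the threshold are shown because these transcripts moved in opposite directions, so that a reader can compare the sequences at their starts. Each runs 5′ to 3′ from 250 bases before to 50 bases after the start site that RefSeq gives on GRCh38.p14, and capitals mark letters matching a motif that was searched on both strands.
ATRIP (chr3:48446487-48446786, strand plus): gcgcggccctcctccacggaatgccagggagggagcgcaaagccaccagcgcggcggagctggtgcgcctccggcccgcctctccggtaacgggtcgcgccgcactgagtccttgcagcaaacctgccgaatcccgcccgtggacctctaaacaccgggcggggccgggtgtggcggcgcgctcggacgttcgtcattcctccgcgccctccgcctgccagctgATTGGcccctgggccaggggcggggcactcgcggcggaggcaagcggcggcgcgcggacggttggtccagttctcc
TOPBP1 (chr3:133661892-133662191, strand minus): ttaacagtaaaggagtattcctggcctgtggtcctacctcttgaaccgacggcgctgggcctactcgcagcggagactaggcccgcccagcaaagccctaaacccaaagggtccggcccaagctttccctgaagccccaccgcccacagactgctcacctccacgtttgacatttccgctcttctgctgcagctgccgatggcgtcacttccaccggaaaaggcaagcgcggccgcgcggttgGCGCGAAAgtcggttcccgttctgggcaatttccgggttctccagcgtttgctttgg
MDC1 (chr6:30717232-30717531, strand minus): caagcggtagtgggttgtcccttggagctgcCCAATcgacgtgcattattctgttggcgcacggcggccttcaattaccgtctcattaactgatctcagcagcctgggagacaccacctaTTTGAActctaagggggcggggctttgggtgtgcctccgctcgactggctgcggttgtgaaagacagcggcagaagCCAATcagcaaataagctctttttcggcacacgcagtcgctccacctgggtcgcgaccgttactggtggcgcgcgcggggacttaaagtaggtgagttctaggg
CHEK2 (chr22:28741771-28742070, strand minus): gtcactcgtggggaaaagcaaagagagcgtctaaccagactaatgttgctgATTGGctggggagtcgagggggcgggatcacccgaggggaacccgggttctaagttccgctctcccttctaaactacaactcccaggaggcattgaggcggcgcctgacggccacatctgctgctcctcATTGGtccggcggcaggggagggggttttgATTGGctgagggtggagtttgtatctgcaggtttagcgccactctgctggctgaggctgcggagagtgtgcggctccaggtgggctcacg
The motifs were E2F-type letters (TTTCCCGC, TTTGGCGC, TTTGGCGG or TTTCGCGC), the CCAAT box (CCAAT), the cell cycle element CHR (TTTGAA), ETS-type letters (CCGGAAG) and NRF1-type letters (GCGCATGC). E2F-type letters were found in TOPBP1 and CLSPN, 2 of the 10 promoters, and in 3.35% of the 35116 promoters of this length. CCAAT was found in 8 of the 10, the exceptions being ATR and TOPBP1, and in 34.6% of all promoters, and CHEK2 held it 3 times, each time as its reverse complement. TTTGAA was found in ATM, H2AX and MDC1 (15.2% of all promoters), and CCGGAAG in ATM, ATR and TP53BP1 (10.3%). GCGCATGC was in none of the 10 and in 3.05% of all promoters. A match describes letters in this window and is not evidence of a bound factor. TOPBP1, which rose, and CLSPN, whose fitted change was negative, both carried E2F-type letters that span the start site.

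For the apical kinases, no difference passed the threshold. ATM (chr11:108223044-108369102 of GRCh38, GENCODE release 44, 63 exons in its canonical transcript) was measured at 18.80, 18.29, 19.91 and 18.31 TPM in the vehicle libraries and at 15.54, 18.62, 18.53 and 15.18 TPM in the LLY-283 libraries. LLY-283 replicates 1 and 4 were below every vehicle library, while replicates 2 and 3 were among them. The log2 fold change of ATM was -0.15 ± 0.0751 (SE, limma, adjusted p = 0.161), with a 95% interval from -20.1% to 0.953% of the vehicle level. ATR (chr3:142449007-142578733, 47 exons) had 16.37, 18.83, 18.29 and 18.02 TPM with vehicle and 17.01, 17.89, 18.36 and 17.39 TPM with LLY-283, so that the LLY-283 values lay within the range of the vehicle values. Its log2 fold change was -0.02 ± 0.0523 (SE, limma, adjusted p = 0.849), and the 95% interval ran from -8.83% to 7.28%. ATM and ATR were at almost the same level, with a ratio of ATM to ATR TPM of 1.06 ± 0.0783 with vehicle and 0.959 ± 0.0789 with LLY-283 (SD, n = 4 each; exact permutation test, two-sided, p = 0.143).

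ATRIP (chr3:48446710-48467645, 13 exons), the partner that ATR needs to reach RPA, rose where its kinase did not pass the threshold. It was measured at 9.47, 9.74, 10.62 and 8.70 TPM in the vehicle libraries and at 12.08, 12.96, 11.75 and 10.81 TPM in the LLY-283 libraries. All 4 LLY-283 values were above all vehicle values, the closest being 10.81 and 10.62 TPM. The log2 fold change was 0.30 ± 0.0758 (SE, limma, adjusted p = 0.0172; 95% interval from 9.63% to 38.8%). The ratio of ATRIP to ATR within a library, which is unchanged by any single scaling factor per library, was 0.578, 0.517, 0.581 and 0.483 with vehicle and 0.710, 0.724, 0.640 and 0.622 with LLY-283. The ranges did not overlap (exact permutation test, two-sided, p = 0.0286, the smallest that 4 against 4 libraries can give). Adjusted over the 4 ratios compared (ATRIP to ATR, CHEK1 to CHEK2, CLSPN to CHEK1 and ATM to ATR), this p became 0.0571, so it did not pass the threshold after adjustment.

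The value of ATRIP depends on how reads were divided between overlapping genes. TREX1, which encodes a DNA exonuclease, lies on the same strand inside the ATRIP gene, and all 1448 of its exonic bases are also exonic in ATRIP transcripts (5431 exonic bases in all). RSEM estimates how many of the shared reads belong to each gene. TREX1 had 32.37, 37.64, 38.39 and 36.78 TPM with vehicle and 25.43, 21.74, 24.54 and 29.68 TPM with LLY-283. Thus TREX1 fell (adjusted p = 0.00311 for a log2 fold change of -0.52, limma) in the same libraries in which ATRIP rose. The summed TPM of both genes was 45.9 ± 3.08 with vehicle and 37.2 ± 2.45 with LLY-283 (SD, n = 4 each), and ATRIP made up between 19.1% and 22.6% of the sum with vehicle and between 26.7% and 37.3% with LLY-283. Since TPM is divided by length, reads moved between genes of unlike length change the sum, so the sum cannot show how the shared reads were divided. Whether the division of shared reads contributed to the rise of ATRIP was not tested, since it needs the reads.

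**Figure D2:**
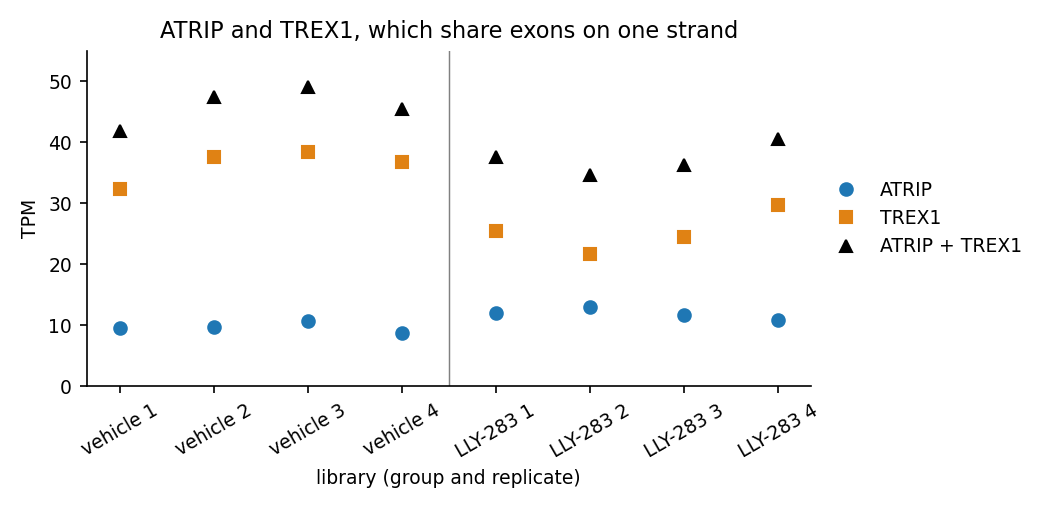
TPM of ATRIP (circles), TREX1 (squares) and their sum (triangles) in each of the 4 vehicle and 4 LLY-283 libraries, identified by group and replicate number on the horizontal axis. ATRIP lies higher and TREX1 lower in all LLY-283 libraries, and the sum falls from 45.9 to 37.2 TPM on average. Because TPM is divided by length, the sum is not kept when reads move between genes of unlike length.

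Of the protein that activates ATR and the one that hands CHEK1 to it, only the former passed the threshold. TOPBP1 (chr3:133598175-133662380, 28 exons) had 39.33, 34.30, 35.30 and 32.54 TPM with vehicle and 47.38, 42.09, 44.22 and 38.95 TPM with LLY-283. Of the 4 LLY-283 values, 3 (replicates 1, 2 and 3) were above all vehicle values, and LLY-283 replicate 4 lay just under vehicle replicate 1. The log2 fold change was 0.29 ± 0.0712 (SE, limma, adjusted p = 0.0166; 95% interval from 9.17% to 36.2%). CLSPN (chr1:35720218-35769978, 25 exons) had 21.13, 20.03, 22.90 and 19.28 TPM with vehicle and 18.52, 19.18, 18.78 and 17.25 TPM with LLY-283. All LLY-283 values of CLSPN were below all vehicle values, but the nearest were only 19.18 and 19.28 TPM, and its log2 fold change of -0.17 ± 0.0600 (SE, limma, adjusted p = 0.0591) missed the threshold. It was under it in 3 of 20 alternative analyses, with adjusted p-values between 0.0124 and 0.131 over all of them. The 95% interval of the change in CLSPN ran from -19.3% to -2.68%, before adjustment for the number of genes.

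Of the effector kinases, CHEK2 fell and CHEK1 did not pass the threshold. CHEK2 (chr22:28687743-28742422, 15 exons) had 12.97, 14.63, 11.59 and 13.35 TPM with vehicle and 10.16, 10.88, 11.09 and 9.78 TPM with LLY-283, and every LLY-283 value was below every vehicle value. Its log2 fold change was -0.32 ± 0.0756 (SE, limma, adjusted p = 0.0133; 95% interval from -28.8% to -9.92%). Under quantile normalization the fall was smaller and did not pass the threshold (adjusted p = 0.0625 for a log2 fold change of -0.23). With the replicate block and the trend on GC content and length removed, the call was lost with the log2 fold change at -0.32 (adjusted p = 0.0551). CHEK1 (chr11:125625163-125676255, 13 exons) had 45.05, 42.80, 44.89 and 43.87 TPM with vehicle and 41.48, 42.54, 44.53 and 45.91 TPM with LLY-283. The 2 groups of CHEK1 overlapped, and the 95% interval of its change ran from -7.17% to 5.01% (limma adjusted p = 0.765, log2 fold change -0.02 ± 0.0396, SE). The ratio of CHEK1 to CHEK2 was 3.47, 2.93, 3.87 and 3.29 with vehicle and 4.08, 3.91, 4.02 and 4.69 with LLY-283. These ranges did not overlap either (exact permutation test, two-sided, p = 0.0286, and 0.0571 adjusted over the 4 ratios). The ratio of CLSPN to CHEK1 was 0.472 ± 0.0291 with vehicle and 0.424 ± 0.0345 with LLY-283 (SD, n = 4 each; exact permutation test, two-sided, p = 0.0857, and 0.114 adjusted over the 4 ratios). The log2 difference of this ratio was -0.156, and it lay between -0.19 and -0.1 when 1 library was left out.

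Between the outermost GENCODE starts, which are also used for the distances below, CHEK2 lies 383 bases from HSCB. HSCB is an iron-sulfur cluster co-chaperone gene on the opposite strand, and 293 exonic bases are shared between them over all annotated transcripts. This GENCODE start lies outside the CHEK2 promoter window shown above, which was set on the RefSeq start. HSCB also fell, from 29.4 ± 3.90 to 22.2 ± 1.79 TPM (limma adjusted p = 0.0123, log2 fold change -0.40, SD, n = 4 each). The strandedness of the counting is not given in the sources used here, so reads from the shared bases cannot be assigned to a strand. The 7 pseudogenes named CHEK2P1 to CHEK2P7 were listed at 0 in all libraries. ATM has a neighbour of the same kind in NPAT, a regulator of histone genes whose start is 406 bases away, and NPAT was at 10.3 ± 1.45 TPM with vehicle and 9.34 ± 0.367 TPM with LLY-283 (SD, n = 4 each; adjusted p = 0.321, limma).

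Among the chromatin proteins, MDC1 rose. MDC1 (chr6:30699807-30717447, 15 exons), the reader of γH2AX, had 32.11, 33.40, 40.84 and 32.42 TPM with vehicle and 40.65, 44.06, 42.39 and 47.88 TPM with LLY-283. Vehicle replicate 3 stood apart from the other vehicle libraries and overlapped LLY-283 replicate 1, and the remaining LLY-283 values were above all vehicle values. The log2 fold change was 0.34 ± 0.0809 (SE, limma, adjusted p = 0.0141; 95% interval from 11.5% to 43.4%), and it was 0.42 (adjusted p = 0.00222) without vehicle replicate 3. By its outermost GENCODE start, MDC1 begins 12 bases from TUBB, a tubulin gene on the opposite strand at a far higher level. The genes share 13 exonic bases. The MDC1 promoter shown above was set on a different start, from RefSeq. TUBB had a log2 fold change of 0.06 (adjusted p = 0.340, limma).

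H2AX (chr11:119093874-119095465, 1 exon), the histone variant that is phosphorylated at breaks, had 184.32, 195.99, 193.36 and 193.57 TPM with vehicle and 160.27, 172.59, 164.41 and 192.89 TPM with LLY-283. LLY-283 replicates 1, 2 and 3 were below every vehicle library, and replicate 4 was among them. The log2 fold change was -0.16 ± 0.0539 (SE, limma, adjusted p = 0.0593; 95% interval from -17.5% to -2.40% before adjustment for the number of genes). LLY-283 replicate 4 also differed from the other libraries in its mitochondrial transcripts, which made up 7.19% of its TPM against 10.15% to 11% in the other 7. Without it the log2 fold change of H2AX was -0.21 (adjusted p = 0.00202), and with mitochondrial genes left out of all libraries it was -0.17 (adjusted p = 0.0228). It passed the threshold in 5 of 20 alternatives, with adjusted p-values between 0.00202 and 0.197, the highest under median-of-ratios scaling (log2 fold change -0.11). Poly(A) RNA was captured, and H2AX forms both a polyadenylated and a histone-type transcript without a poly(A) tail, so that only the former is measured well. TP53BP1 (chr15:43403061-43510728, 28 exons), whose protein steers breaks toward end joining, had 90.06, 89.06, 97.54 and 93.23 TPM with vehicle and 95.04, 92.26, 93.06 and 85.07 TPM with LLY-283. The groups of TP53BP1 overlapped, and the 95% interval of its change ran from -7.64% to 5.63% (limma adjusted p = 0.792, log2 fold change -0.02 ± 0.0431, SE).

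Genes next to TP53BP1 passed the threshold where TP53BP1 did not. TUBGCP4, a γ-tubulin complex gene that overlaps it on the opposite strand and shares 3732 exonic bases with it, rose from 36.7 ± 2.58 to 46.2 ± 2.52 TPM (limma adjusted p = 0.00314, log2 fold change 0.33, SD, n = 4 each). MAP1A, which encodes a microtubule protein and starts 230 bases away in the other direction, fell from 26.2 ± 0.995 to 20.6 ± 1.61 TPM (adjusted p = 0.00261 for a log2 fold change of -0.35, limma). As the strandedness of the counting is not given, reads from the 3732 bases shared by TP53BP1 and TUBGCP4 cannot be assigned to a strand. Whether their division affected either value was not tested.

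**Figure D3:**
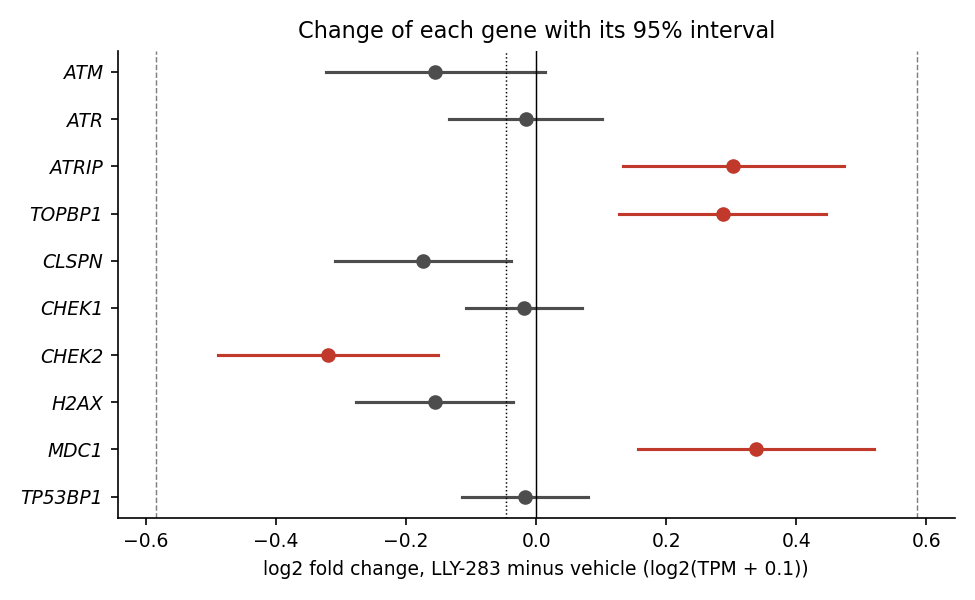
Fitted log2 fold change of each gene (points) with its 95% interval (lines), LLY-283 minus vehicle, for n = 4 libraries per group. Red marks an adjusted p-value under 0.05, the dotted line the median of all genes tested (-0.047) and the dashed lines a 1.5-fold change; every interval lies inside the dashed lines.

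Since TPM is divided by length, the levels of the genes can be set side by side. With vehicle, H2AX was the most abundant (191.8 ± 5.13 TPM, higher than 94.7% of the genes tested), followed by TP53BP1 (92.5 ± 3.82 TPM) and CHEK1 (44.2 ± 1.04 TPM), and each of these was separated from the next in every library. TOPBP1 (35.4 ± 2.88 TPM) and MDC1 (34.7 ± 4.14 TPM) overlapped, as did CLSPN (20.8 ± 1.57 TPM), ATM (18.8 ± 0.759 TPM) and ATR (17.9 ± 1.06 TPM), each with the next in this order. CHEK2 (13.1 ± 1.25 TPM) and ATRIP (9.63 ± 0.792 TPM, higher than 35.7% of the genes tested) were the least abundant (all mean ± SD, n = 4). With LLY-283 the values of CHEK1, TOPBP1 and MDC1 overlapped, and so did those of CHEK2 (9.78 to 11.09 TPM) and ATRIP (10.81 to 12.96 TPM), which had been separate with vehicle.

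The wider pathway was described with 81 genes in 6 lists, all of them tested. Of these, 5 rose and 18 fell at an adjusted p-value under 0.05, 28.4% in all against 26.2% of all genes tested, and their median log2 fold change was -0.053 against -0.047. The 5 increases were 2 to 9 over the alternatives (8 under median-of-ratios scaling, 9 under quantile normalization, and 3 without vehicle replicate 1, 2 or 4 or LLY-283 replicate 1 or 3), and the 18 decreases were 14 to 19. None of the 10 genes for the MRE11-RAD50-NBN complex and for ATM assembly and activation passed the threshold. MRE11 and NBN, subunits of the complex that brings ATM to breaks, had log2 fold changes of -0.02 (adjusted p = 0.843) and -0.01 (adjusted p = 0.855), and KAT5, the acetyltransferase that activates ATM, one of 0.11 (adjusted p = 0.130, limma; it passed the threshold in 2 of 20 alternatives).

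Of the 14 genes that recruit and activate ATR, 1 rose and 4 fell (35.7% called, against 26.2% of all genes tested). HUS1, a subunit of the 9-1-1 clamp to which TOPBP1 binds, rose from 17.1 ± 0.654 to 22.2 ± 1.87 TPM (limma adjusted p = 0.00273, log2 fold change 0.37, SD, n = 4 each). RAD9A, another subunit of the clamp, had a log2 fold change of 0.04 (adjusted p = 0.618). RHNO1, which also binds the clamp, fell (adjusted p = 0.00388 for a log2 fold change of -0.20), as did the fork protection partners TIMELESS (-0.20, adjusted p = 0.00154) and TIPIN (-0.17, adjusted p = 0.0454) and the smallest RPA subunit gene RPA3 (-0.20, adjusted p = 0.00218). The larger RPA subunits RPA1 and RPA2 had log2 fold changes of -0.01 (adjusted p = 0.923) and -0.07 (adjusted p = 0.277). TIPIN passed the threshold in 6 of 20 alternatives.

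Among the 4 listed genes of the family to which ATM and ATR belong, MTOR fell (limma adjusted p = 0.00137 for a log2 fold change of -0.20). PRKDC, the DNA-dependent protein kinase of end joining, had a log2 fold change of -0.05 (adjusted p = 0.475, limma). Of the 24 genes for ubiquitin signalling at breaks and for the partners of 53BP1, 1 rose and 5 fell, so that 25.0% were called, close to the 26.2% of all genes tested. NUDT16L1, whose protein (TIRR) binds 53BP1 and keeps it from chromatin, rose from 20.2 ± 0.534 to 24.2 ± 1.52 TPM (adjusted p = 0.00569 for a log2 fold change of 0.26). BRCA1 fell from 33.1 ± 2.04 to 26.2 ± 0.651 TPM (adjusted p = 0.00116 for a log2 fold change of -0.34), ABRAXAS1, the scaffold of a BRCA1 complex, from 8.42 ± 0.536 to 5.90 ± 0.370 TPM (-0.51, adjusted p = 0.00117), and RBBP8, which starts end resection, from 38.1 ± 0.822 to 30.4 ± 2.40 TPM (-0.33, adjusted p = 0.00239, SD, n = 4 each, limma). The other 2 that fell were PAGR1 (-0.29, adjusted p = 0.00168) and BABAM2 (-0.21, adjusted p = 0.0145). The ligases that act between MDC1 and 53BP1, RNF8 (adjusted p = 0.370 for a log2 fold change of 0.09) and RNF168 (-0.07, adjusted p = 0.300), and the 53BP1 effector RIF1 (0.12, adjusted p = 0.239) were not called.

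The targets of the checkpoint kinases in the cell cycle had the highest share of calls among the 6 pathway lists, with 1 of 18 higher and 8 lower, where 8.61% of all genes tested rose and 17.6% fell. CDKN1A, which encodes the CDK inhibitor p21, fell from 13.8 ± 0.530 to 8.27 ± 0.558 TPM (adjusted p = 7.95e-05 for a log2 fold change of -0.73, SD, n = 4 each, limma), and it was the only 1 of the 81 pathway genes that changed more than 1.5-fold. The phosphatases that CHEK1 and CHEK2 inactivate fell in part, with log2 fold changes of -0.41 for CDC25C (adjusted p = 0.000535), -0.27 for CDC25B (adjusted p = 0.000807) and -0.15 for CDC25A, which did not pass the threshold (adjusted p = 0.0588). E2F1 (-0.35, adjusted p = 0.000139), CDK1 (-0.20, adjusted p = 0.00195), CDK2 (-0.18, adjusted p = 0.0154), CCNA2 (-0.12, adjusted p = 0.0110) and FOXM1 (-0.10, adjusted p = 0.0247) also fell, while TLK1 rose (0.14, adjusted p = 0.0355). Some of these calls were lost in alternative analyses, since TLK1 passed the threshold in 10 of 20 (adjusted p up to 0.0944), FOXM1 in 13 (up to 0.188), CDK2 in 18 (up to 0.0900) and CCNA2 in 19 (up to 0.0635). The CDK1 inhibitory kinase WEE1 (0.03, adjusted p = 0.697) and the ubiquitin ligase MDM2 (-0.02, adjusted p = 0.748) missed the threshold.

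Of the 11 genes for phosphatases and turnover of the checkpoint, PPP4R2, a subunit of a phosphatase that acts on γH2AX, rose (adjusted p = 0.0171 for a log2 fold change of 0.22), and so did USP7, a deubiquitinase (0.17, adjusted p = 0.0224). The 2 calls of 11 genes make 18.2%, against 26.2% of all genes tested, and PPP4R2 passed the threshold in 18 of 20 alternatives (adjusted p up to 0.0902) and USP7 in 13 (up to 0.0612). PPM1D, the phosphatase that ends ATM signalling, had a log2 fold change of -0.12 (adjusted p = 0.271, limma). Among the 5 other H2A variants, H2AZ1 fell (-0.12, adjusted p = 0.0160), and MACROH2A1 rose (0.20, adjusted p = 0.000613), the former in 18 and the latter in all of 20 alternatives.

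**Figure D4:**
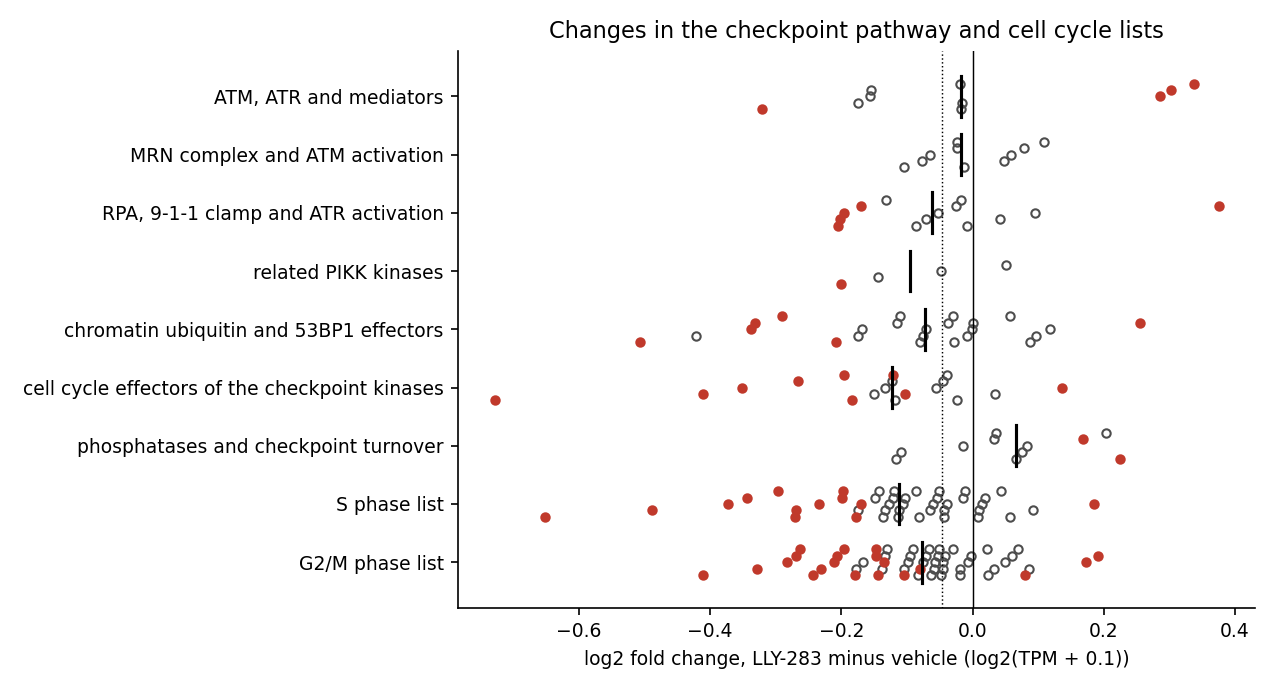
Fitted log2 fold change (LLY-283 minus vehicle) of each gene of the 10 described here, of the 6 pathway lists and of the 2 cell cycle lists. Filled red points passed an adjusted p-value of 0.05, open points did not, black bars give the median of each list and the dotted line that of all genes tested (-0.047); the point farthest to the left is CDKN1A (-0.73).

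Transcripts of CHEK1, TOPBP1 and CLSPN are known to vary with the cell cycle, so the cell cycle lists are given beside them. In the S phase list of Seurat, which holds CLSPN itself, 12 of the other 42 genes fell and 1 rose, with a median log2 fold change of -0.109, and 31.0% were called against 26.2% of all genes tested, whose median was -0.047. In the G2/M phase list, 17 of 54 fell and 3 rose (37.0% called), with a median of -0.078, where 17.6% of all genes tested fell and 8.61% rose. The 4 increases in both lists became 1 or 2 in several alternatives, among them those without vehicle replicate 1, 2 or 4 or LLY-283 replicate 1, 2 or 3. The 29 decreases in both lists ranged from 20 under median-of-ratios scaling to 36 without LLY-283 replicate 4. The proliferation marker MKI67 had a log2 fold change of -0.15 (adjusted p = 0.0394, limma; it passed the threshold in 12 of 20 alternatives). In the same libraries the log2 fold change was -0.17 for CLSPN and 0.29 for TOPBP1. In RNA from whole cultures, fewer cells in a phase and less RNA per cell cannot be told apart, and the part of the cell cycle in the changes of the 10 genes was not tested.

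Of facts that concern the whole series, PRMT5 itself had a log2 fold change of 0.01 (adjusted p = 0.944, limma). Of 9 glial and mesenchymal markers fixed for the line, 8 were tested and OLIG2 was at most 0.03 TPM. Of the 8, 4 fell and 1 rose (62.5% called against 26.2% of all genes tested; medians -0.192 and -0.047 on the log2 scale), and the values of these 5 did not overlap between the groups, as for 29.2% of all genes tested. Those that fell were GFAP (778.18 to 839.89 TPM with vehicle and 662.82 to 700.97 TPM with LLY-283), FABP7 (306.11 to 318.63 and 261.74 to 273.44 TPM), NES (476.39 to 487.55 and 424.22 to 436.95 TPM) and SOX2 (99.43 to 107.16 and 84.48 to 87.08 TPM), and CD44 rose (1530.9 to 1638.18 and 1679.63 to 1731.9 TPM). Their part in the changes of the 10 genes was not tested. The sum of the 9 markers, most of it VIM and CD44, was 7600 to 7780 TPM with vehicle and 7290 to 7650 TPM with LLY-283. The 9 markers reported here of immune, endothelial, epithelial, neuronal and oligodendrocyte cells were below 1 TPM in all libraries. Since TPM holds no read counts, sequencing depth is unknown and counting error could not be estimated.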

How the data were processed

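RNAseq was measured in 8 U251 libraries, 4 per group. The authors deposited 1 TPM value for each gene in each library, given to 2 decimals. Before that, reads had been adapter-trimmed (cutadapt), aligned to GRCh38 (STAR) and assigned to the genes of GENCODE release 41 (RSEM). The submitters' processing notes give cutadapt 1.18, STAR 2.7.0f and RSEM 1.3.1, whereas the paper's methods give other versions of STAR and RSEM. TPM follows the composition of a library, so a few abundant genes can shift all others, and RSEM divides reads between overlapping genes.

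Genes averaging 1 TPM or more (14478) entered a limma 3.58.1 fit of log2(TPM + 0.1) on treatment in R 4.3.3, using the trended form of eBayes and no replicate block. A call was an adjusted p-value under 0.05 (Benjamini-Hochberg over all genes tested), and calls above 1.5-fold were counted separately. A fold change on this scale understates that of low genes. On simulated data the comparison recovered 175 of 200 genes changed by 1 on the log2 scale, with 11 others called among 14478 genes. The changes of the 10 genes were all smaller than this, and the recovery of smaller changes was not simulated. Ratios of TPM within a library were compared by exact permutation over the 70 splits of 4 against 4. Positions came from GENCODE release 44 on GRCh38 and promoters from RefSeq (GRCh38.p14), where all 10 genes were matched by symbol. Distances between starts were taken from the outermost GENCODE start of each gene, which can differ from the RefSeq start.

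The 10 genes, the pathway lists and the markers were written from general knowledge, and the cell cycle lists come from Seurat. All were chosen with earlier results of these data known. Named genes are the 10, the called gene of lowest p-value per direction and pathway list, 16 fixed by name (MDM2, CDKN1A, CDC25A, WEE1, RPA1, RPA2, RAD9A, MRE11, NBN, RNF8, RNF168, RIF1, PPM1D, PRKDC, KAT5 and MKI67), PRMT5, and genes that overlap or neighbour one of the 10. The other genes called in the lists, the H2A variants and the sum with TREX1 were named after their values were seen. As alternatives, the pseudocount was set to 0.5 or 1, and the others were other filters, median-of-ratios scaling, quantile normalization, removal of mitochondrial genes, a replicate block, other forms of eBayes, correction for GC content and length of transcripts (natural splines, 4 degrees of freedom each), and each library left out in turn. A pathway gene and a cell type marker of the lists are not reported here and entered no list count. Splicing events and transcript isoforms were not analysed here.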

Additional observations from a re-analysis of the deposited data

Results flagged for a closer look

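MDC1 in vehicle replicate 3, at 40.8 TPM, lay far above the other 3 vehicle libraries (32.11 to 33.40 TPM), with a gap of 0.852 of the range of the group, above Dixon's 95% critical value for 4 samples. Of the 28 groups of 4 values examined this way (10 genes and 4 ratios in each treatment), this was the only one past that value. Chance takes about 1 in 20 such groups past it, so 1 of 28 is not more than chance would give. Without this library the log2 fold change of MDC1 was 0.42 in place of 0.34.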

How the results depend on the processing

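Over the 20 alternatives, ATRIP (log2 fold change 0.26 to 0.40), MDC1 (0.29 to 0.42) and TOPBP1 (0.24 to 0.34) rose in all. Their highest adjusted p-values (limma) were close to the threshold, at 0.0479, 0.0427 and 0.0479, each with 1 library left out. CHEK2 (-0.38 to -0.23) fell in 18. The exceptions were quantile normalization (adjusted p = 0.0625) and the replicate block with the trend on GC content and length removed (log2 fold change -0.32, adjusted p = 0.0551). ATM was lower in all without passing the threshold, with log2 fold changes from -0.201 to -0.099 (the latter under quantile normalization). ATR (-0.06 to 0.04), CHEK1 (-0.04 to 0.03) and TP53BP1 (-0.04 to 0.03), which did not pass it in any, changed sign under median-of-ratios scaling and when some single libraries were left out, ATR and CHEK1 also under quantile normalization. H2AX passed the threshold in 5 and CLSPN in 3. The number of the 10 genes that fell was therefore 2 in place of 1 with a filter at 5 TPM, with mitochondrial genes left out, with the replicate block alone (all H2AX with CHEK2) and with the GC and length trend removed (CLSPN with CHEK2), and 1 or 2 when 1 library was left out (2 without vehicle replicate 4, through CLSPN, and without LLY-283 replicate 4, through H2AX). Elsewhere it was 1, but that gene was H2AX under quantile normalization and CLSPN with the replicate block and the GC and length trend removed, in place of CHEK2. The number above 1.5-fold was 0 in each direction.

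Median-of-ratios scaling and quantile normalization called 1927 and 1871 genes increased among all genes, against 1247, and 1866 and 1820 decreased, against 2541, so that the excess of decreases was lost under both, and moved the median of all genes from -0.047 to -0.0022 and 0.0145. At an adjusted p-value under 0.05 and above 1.5-fold, 57 genes were increased and 504 decreased, with 0 pathway genes increased and 1 decreased. The pathway genes increased, 5 in the analysis reported, numbered 8 under median-of-ratios scaling, 9 under quantile normalization, 3 with mitochondrial genes left out, 3 with the replicate block, 2 with the GC and length trend removed and the replicate block, and between 3 and 5 when 1 library was left out. The cell cycle genes increased numbered 1 without a filter on low values, 2 without a mean-variance trend, 2 with the replicate block and between 1 and 5 when 1 library was left out, in place of 4. Same-numbered deviations correlated between -0.085 and 0.032 over all genes. This cannot exclude pairing, and the labels do not say whether the replicate numbers mark pairs. With the replicate block, the SE was smaller for TOPBP1 (0.0329 in place of 0.0712) and larger for CHEK1 (0.0400 in place of 0.0396) and CHEK2 (0.0764 in place of 0.0756). With the replicate numbers as pairs, the log2 differences of 0.322 in the ATRIP to ATR ratio and 0.305 in the CHEK1 to CHEK2 ratio had an exact p of 0.125. This is the smallest that 4 pairs allow. The CHEK1 to CHEK2 difference was between 0.236 and 0.371 when 1 library was left out, with an exact p of 0.0571 in place of 0.0286 without any 1 of the LLY-283 libraries. TPM holds no depth, so the precision of low values cannot be given.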
